A study of Mus musculus with 2 samples.

Results

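The genes of the Wnt pathway were examined in Flk1+Tie2+ cells sorted from mouse embryoid bodies with and without a pulse of Mesp1, a transcription factor of early mesoderm. Members were chosen by symbol: the Wnt ligands, Frizzled receptors, Sfrp and Dkk antagonists, R-spondins and Dishevelled genes, together with named co-receptors, destruction complex proteins, TCF/LEF factors and feedback genes. This gave 67 genes with 137 probe sets, out of 18193 genes with a named probe set. Tcf7 was in the rule but had no probe set of that name in the annotation used here. The symbol pattern also matched Fzd10os, a noncoding transcript listed beside Fzd10 in the RefSeq gene table, which is kept apart from the receptors below.

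Both samples were made from A2lox.Mesp1 embryonic stem cells, of 129/Ola background, which carry a Mesp1 transgene that doxycycline (dox) turns on. Embryoid bodies, floating aggregates of differentiating stem cells, were seeded at 15000 cells/mL in medium with 10% FCS, and Flk1+Tie2+ cells were sorted on day 5. In the untreated group (1 array) no dox was given, and in the dox group (1 array) it was given at 250 ng/mL from day 2 to day 4. The transgene was therefore present in both groups, and no culture without the transgene but with dox was analysed here. With 1 array per group there was no replicate error, no test and no p-value, and every difference below compares these 2 RNA samples only.

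Wnt proteins are secreted, lipid-modified ligands that bind Frizzled receptors together with the co-receptors Lrp5 or Lrp6. In the canonical branch, receptor binding recruits Dishevelled, disables the complex of Axin and Apc that degrades beta-catenin, and lets beta-catenin act with TCF/LEF factors on target genes. Other branches run through Ror receptors and planar cell polarity proteins. R-spondins, bound by Lgr receptors, keep Frizzled receptors at the cell surface by removing the ubiquitin ligases Znrf3 and Rnf43. In the embryo the pathway is known for forming the primitive streak and mesoderm and for shaping growing vessels, and cardiac differentiation needs it to be restrained.

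Signals have arbitrary units, a lowest value of 1 and medians of 112 without dox and 127 with dox. Differences were taken as dox minus no dox on the scale of log2(signal + 16), where the added 16 damps dim values and understates their change. A gene was read from its brightest probe set and counted only if at least 1 of its signals reached the median of that array (the signal filter). A difference of 2-fold was used as a fixed size. Probe sets of the same gene differed with a pooled SD of 0.38 log2 units over all genes, which was 0.48 where the mean signal was below 500 and 0.26 above it. That SD describes disagreement within arrays, not variation between cultures. The induced gene Mesp1 had a log2 difference of 2.17, whereas Kdr and Tek, whose products were the basis of the sort, each had one of 0.08.

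Most Wnt pathway genes that differed by 2-fold or more were receptors or acted on ligands or receptors at or outside the cell surface. Such genes were also most of the members past the signal filter. Past 2-fold were 8 of 12 receptors and 5 of 6 R-spondins, Lgr receptors and receptor ubiquitin ligases. Secreted antagonists gave 2 of 4, ligands 1 of 7 and cytoplasmic and TCF/LEF genes 0 of 10. The difference between roles was not tested. Of the 67 members, 41 passed the signal filter and 26 did not. Past 2-fold there were 17 of the 41 (beside 7.75% of all genes past the filter), 11 of them higher with dox and 6 lower. Over all 11794 such genes, 5.69% were higher by that size and 2.06% lower, against 26.8% and 14.6% of the 41 members. Rescaling both arrays to equal medians moved the counts over all genes from 671 higher and 243 lower to 529 and 402. The members' median log2 difference was 0.22, beside 0.05 over all genes past the filter. Of the 41 members, 4 (Wnt2, Wnt6, Rspo1 and Sfrp1) passed the filter through the dox array alone and 4 (Wnt5b, Wnt11, Fzd6 and Lgr5) through the untreated array alone, so a difference was built into some of these. When both signals had to reach the median, 33 members were left, 8 higher and 4 lower, beside 3.82% and 1.54% of 10920 genes. The higher members were Wnt2, Fzd1, Fzd4, Fzd7, Ror1, Ror2, Rspo1, Lgr4, Znrf3, Sfrp1 and Dkk1. The lower ones were Fzd5, Fzd6, Fzd10, Fzd10os, Rspo3 and Lgr5. In a bulk sample, fewer cells of a type and less RNA per cell cannot be told apart.

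**Figure D1:**
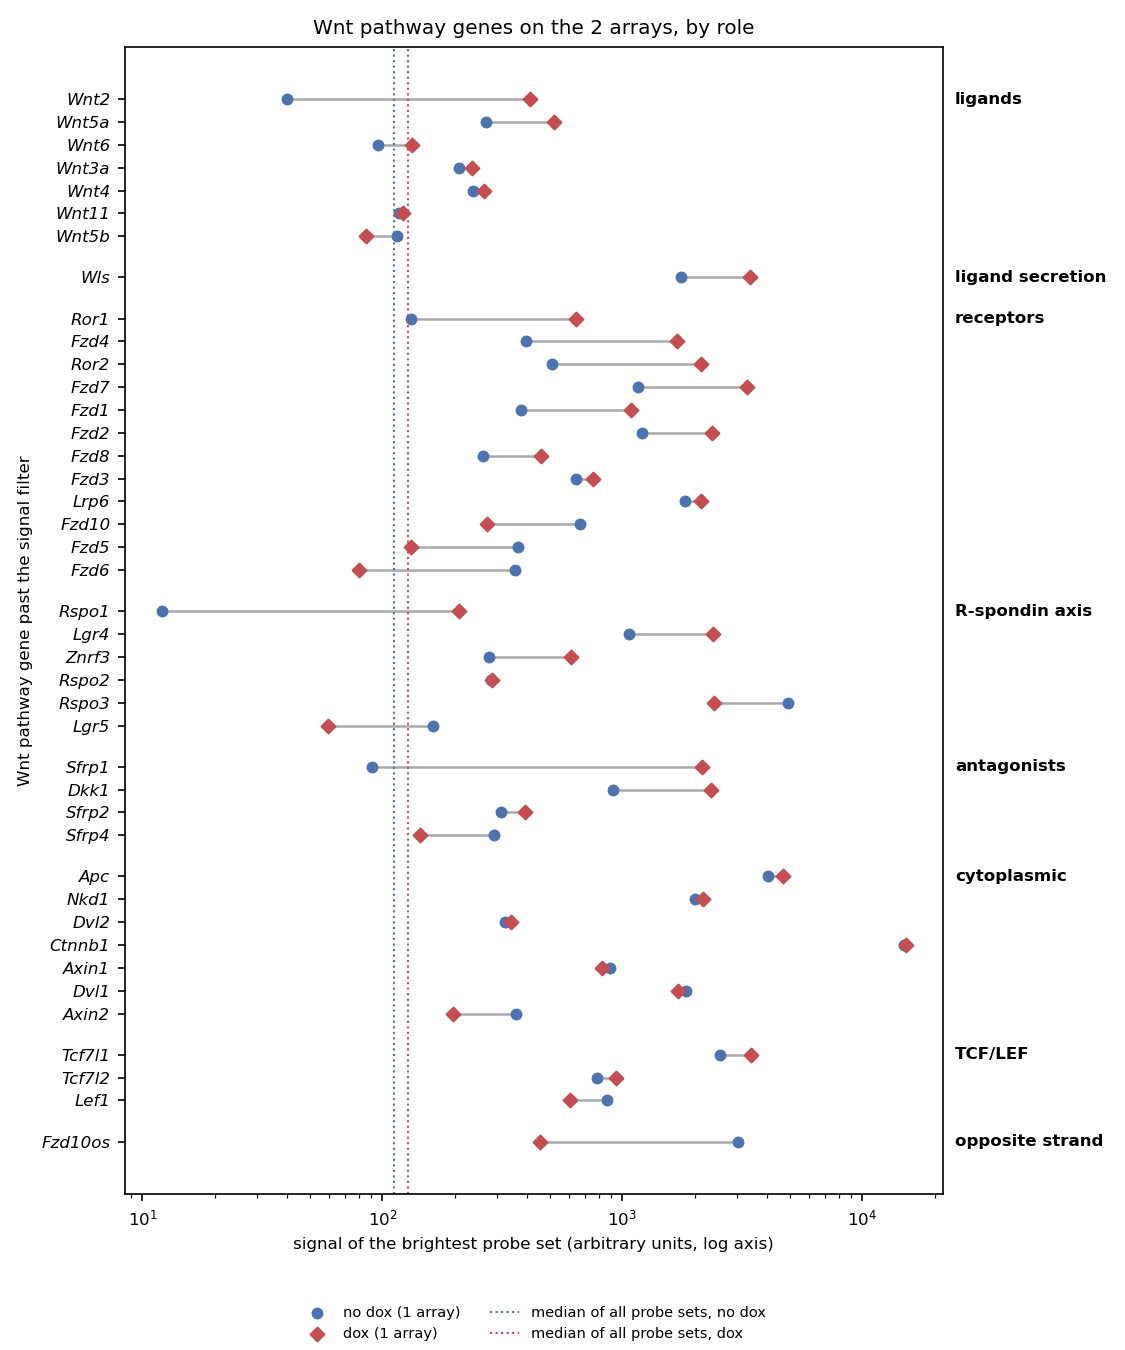
Signal of the brightest probe set (arbitrary units, log axis) of the 41 Wnt pathway genes past the signal filter, grouped by role, with 1 point for the array without dox (circle) and 1 for the array with dox (diamond); dotted lines mark the medians of all probe sets, 112 and 127. Long bars to the right (Wnt2, Rspo1, Sfrp1) and to the left (Fzd6, Fzd10os) lie outside the cytoplasmic and TCF/LEF groups, whose points lie close together, farthest apart for Axin2.

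**Figure D2:**
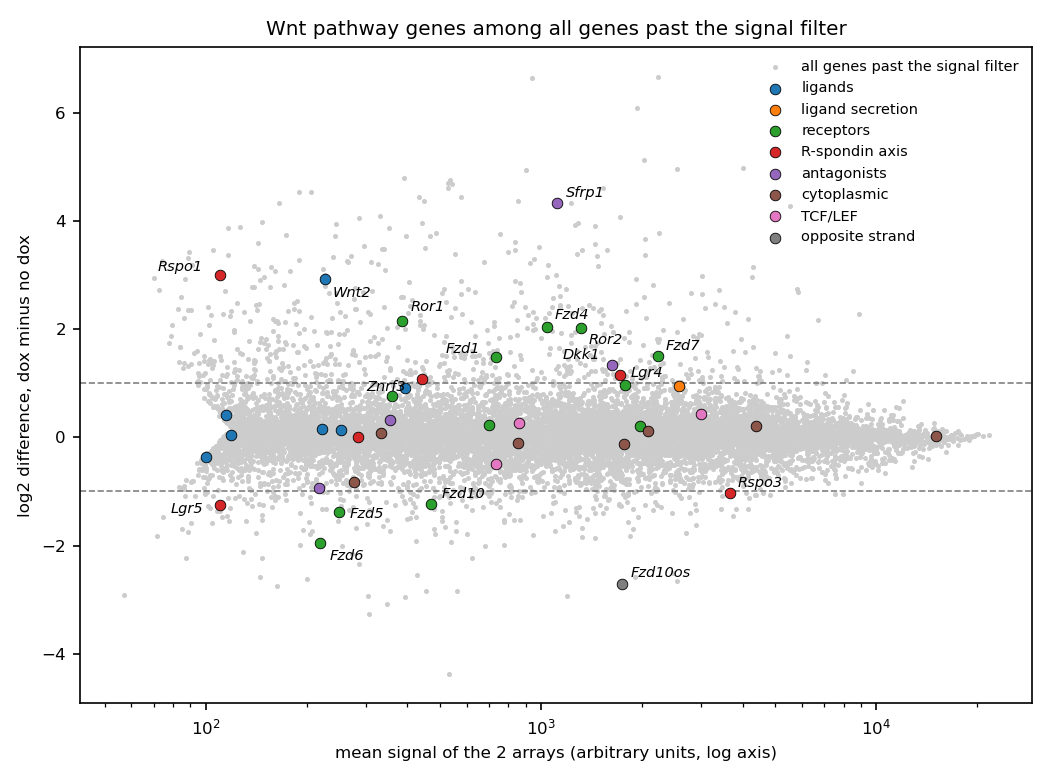
Log2 difference (dox minus no dox) against the mean signal of both arrays (log axis) for all 11794 genes past the signal filter (grey) and for the 41 Wnt pathway genes (coloured by role); dashed lines mark 2-fold. Sfrp1 at 4.34 and Fzd10os at -2.70 are the outermost coloured points, and 24 of the 41 lie between the lines.

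Markers of other cell types moved with these differences. By the brightest probe set, genes of smooth muscle and mesenchyme were higher with dox in all 14 cases by any amount. Over all 18193 measured genes, 9991 were higher by any amount. Some dimmer probe sets of Prrx1 and the second of Col1a1 were lower. Of the 13 mesenchymal genes past the filter, 9 were 2-fold or more higher. The sum of the brightest signals of the 14 genes was 6217 without dox and 42378 with dox. Cnn1 alone was at the floor of 1, without dox. Cardiomyocyte genes were 2-fold or more higher in 6 of 7 past the filter, with sums of 2004 and 7633. Blood genes were 2-fold or more lower in 5 of 12, with sums of 17935 and 10012. Over all genes past the filter, 5.69% were higher by that size and 2.06% lower. The dox array alone let 4 of the 13 mesenchymal and 3 of the 7 cardiomyocyte genes pass. The untreated array alone let 2 of the 12 blood genes pass, so a difference was built into all of these. Endothelial markers were within 2-fold in 11 of 12 by the brightest probe set, with sums of 66206 and 61057. The exception was Cd34 (962 to 383). That count is near the share over all genes (7.75% past 2-fold) and shows nothing particular to these markers. A dimmer probe set of Erg, past the filter on both arrays, was past 2-fold lower (552 to 146, -1.81). The 12 include Kdr and Tek, the genes of the sort, and all 12 passed the filter on both arrays. Markers of the streak and of pluripotency past the filter (2 of 8 measured) and of endoderm (3 of 8) lay within 2-fold. The part of these cell types in the differences of Sfrp1, Ror1, Ror2, Wnt2, Rspo1 and the other members was not tested.

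**Figure D3:**
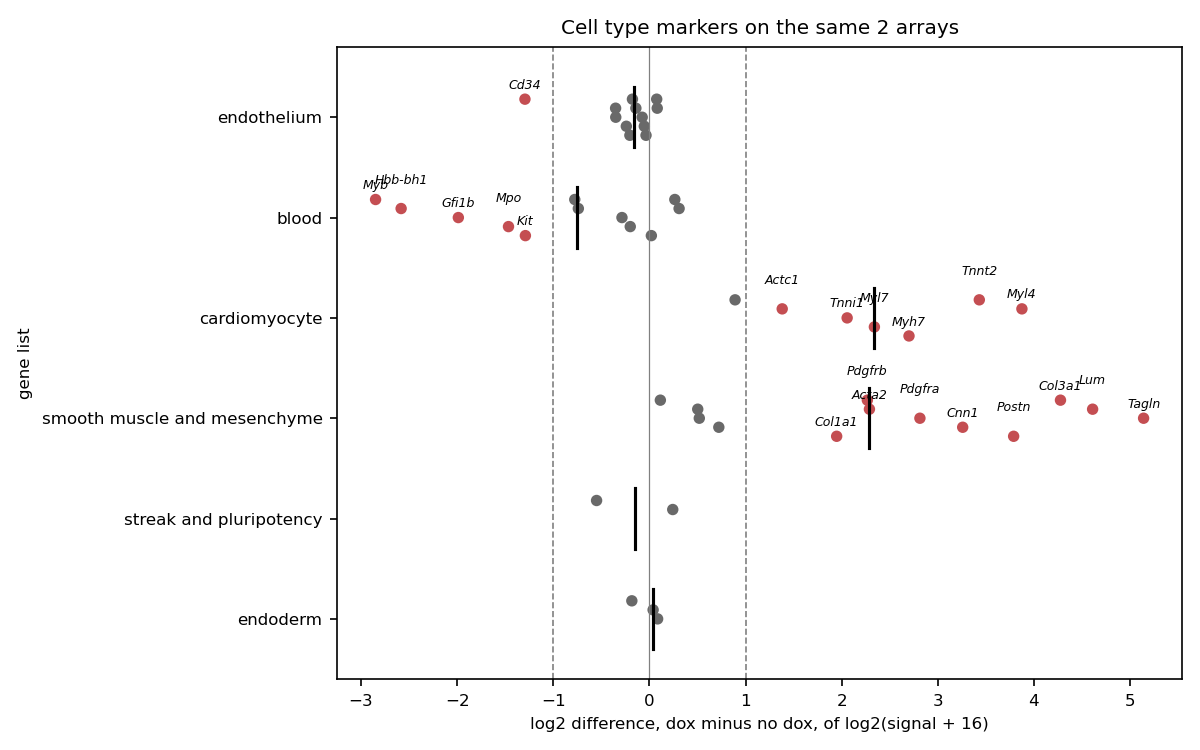
Log2 difference (dox minus no dox) of the brightest probe set for cell type markers past the signal filter, by list; each point is a gene, red points are past 2-fold, dashed lines mark 2-fold and black bars are medians. Endothelial genes cluster near 0 apart from Cd34, blood genes lie mostly to the left, and cardiomyocyte and mesenchymal genes lie to the right.

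Ligand genes were mostly dim. Of 19 Wnt genes 7 passed the signal filter, and 1 of these was past 2-fold, beside 7.75% of all genes past the filter. Wnt2, a ligand of heart and lung mesoderm that acts through beta-catenin, had a signal of 40.05 in the untreated sample and 413 after dox, 7.65-fold higher. Its untreated signal lay below the median of the array, so the size of the fold depends on the pseudocount, with a log2 difference of 3.33 with 1 added and 2.20 with 64 added. Wnt2 had 1 probe set. Wnt5a, the main ligand of the Ror branch, read 269 and 519, which is just short of 2-fold (log2 difference 0.91). Its other probe sets gave 0.72, 0.47 and -0.14, so they did not agree on a direction. Those at 0.72 and 0.47 passed through the dox array alone and that at -0.14 through the untreated array alone. The filter thus partly set these directions. Wnt3a, a streak ligand of the canonical branch, had 209.5 and 235 (log2 difference 0.16), and Wnt4 had 239 and 266 (0.14). Wnt11, a non-canonical ligand used in heart formation, had 117 and 122 (0.05), Wnt6 had 96.1 and 133 (0.41) and Wnt5b had 115 and 85.4 (-0.36). The remaining 12 ligand genes, Wnt1, Wnt2b, Wnt3, Wnt7a, Wnt7b, Wnt8a, Wnt8b, Wnt9a, Wnt9b, Wnt10a, Wnt10b and Wnt16, stayed below the filter. Their brightest probe sets reached at most 111 and differed by -0.98 to 0.64. The table used here has no detection calls, so these signals cannot be read as presence or absence.

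Wls, the carrier that brings Wnt proteins to the surface of the secreting cell, had signals of 1760 untreated and 3407 after the dox pulse, a log2 difference of 0.95. Its other probe sets past the filter gave 0.96 and 0.89 (515 to 1015 and 1676 to 3110), so all 3 were higher and all 3 stayed just short of 2-fold. Porcn, the enzyme that acylates Wnt proteins, was below the filter with 100.1 and 126.

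Frizzled receptors differed in both directions. Of 10 Frizzled genes 9 passed the filter, with 3 higher and 3 lower past 2-fold and 3 between. Over all genes past the filter the shares were 5.69% and 2.06%. Fzd6 passed through the untreated array alone. Fzd4, a receptor for Wnts and for norrin in retinal vessels, had a signal of 398 on the untreated array and 1683 on the dox array, 4.11-fold higher. A further probe set of Fzd4 gave 261 and 953 (log2 difference 1.81 against 2.04), so its probe sets were alike in direction and size. Fzd7, a receptor used in mesoderm and stem cells, had 1157 and 3299, 2.82-fold higher. Fzd1 had 379 and 1091, 2.80-fold higher. Fzd2, with Fzd1 and Fzd7 a subfamily of closely related receptors, had 1203 and 2368 (log2 difference 0.97), and its other probe sets exceeded 2-fold with 1.17 (777 to 1771) and 1.60 (393 to 1228). All 3 genes of that subfamily were thus higher with dox, also after median scaling and quantile normalization, although dim second probe sets of Fzd1 and Fzd7 gave -0.04 and -0.01 below the filter.

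Fzd6, a planar cell polarity receptor, had the largest negative difference among the receptors, with a signal of 358 in the untreated sample and 80.1 after dox, 3.89-fold lower. Fzd5 had 367 and 132, 2.59-fold lower, and Fzd10 had 666 and 273, 2.36-fold lower. Each of these receptors had 1 probe set past the filter. Their dimmer probe sets, below the filter, were lower too, with log2 differences of -0.48 and -0.34 for Fzd6, -0.96 for Fzd5 and -0.54 for Fzd10. Relatives of these receptors did not share their direction past 2-fold. Fzd3, related to Fzd6, had 643 and 758 (0.23). Fzd8, related to Fzd5, had 263 and 458 (0.76) by its brightest probe set. Another probe set of Fzd8 gave -0.25 and passed through the untreated array alone. Of the relatives of Fzd10, Fzd4 was 4.11-fold higher, as given above, and Fzd9 was below the filter (36.8 and 12.9).

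The transcript Fzd10os gave a signal of 3046 untreated and 454 after the dox pulse, 6.51-fold lower, and its second probe set gave 235 and 66.2 (log2 difference -1.61). It and its neighbour Fzd10 were therefore both lower with dox. Whether their probe sets read separate transcripts was not tested, since probe sequences were not used here.

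Among the co-receptors, those of the Ror branch were higher. Ror2, a receptor tyrosine kinase that binds Wnt5a, had a signal of 508 on the untreated array and 2120.3 on the dox array, 4.08-fold higher. Its second probe set stayed short of 2-fold with 162 and 307 (log2 difference 0.85). Ror1 had 131 and 639, 4.45-fold higher, while its dim probe sets, below the filter, gave 0.01 and -0.01. Lrp6, the co-receptor of canonical signalling, had 1819 and 2118 (0.22), and its second probe set gave 0.30. Lrp5 was below the filter with 23.7 and 20.6. The receptor group as a whole had 5 members higher, 3 lower and 4 within 2-fold among 12 past the filter. Over all genes past the filter, 5.69% were higher by that size and 2.06% lower. The median log2 difference of the receptor group was 0.87.

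**Figure D4:**
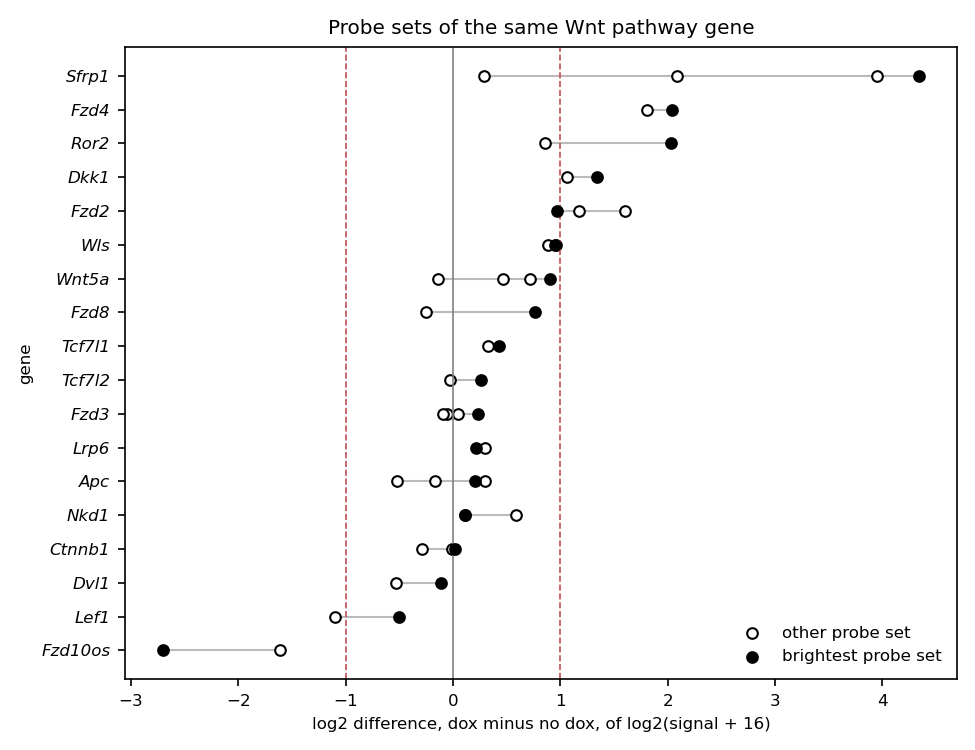
Log2 difference (dox minus no dox) of each probe set past the signal filter, for the 18 Wnt pathway genes with 2 or more of them; filled points are the brightest probe sets, open points the others, and dashed lines mark 2-fold. The probe sets of Fzd4, Wls and Lrp6 lie close together, whereas those of Sfrp1 spread from 0.29 to 4.34 and those of Ror2 from 0.85 to 2.03.

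Agreement between probe sets could be examined for 18 members. In 12 of them all probe sets past the filter had the same direction, and in 14 all lay on the same side of 2-fold. Of the 17 members past 2-fold, 5 had more than 1 probe set past the filter, and in 3 of these (Fzd4, Dkk1 and Fzd10os) every such probe set was past 2-fold. The exceptions were Ror2 and Sfrp1. The second probe set of Fzd10os passed through the untreated array alone. Some probe sets of Sfrp1, Wnt5a, Fzd8 and Lef1 also passed through 1 array alone. The filter thus partly set the directions of such probe sets, and the counts of agreement are not independent of it. For these 18 genes, with 48 probe sets, the pooled SD between probe sets of a gene came to 0.69 on the log2 scale.

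The promoters of members that differed were compared by sequence. A core of the TCF/LEF binding motif, written as CTTTGAT or CTTTGTT on either strand, was sought in the 250 bases before each start in RefSeq promoters of assembly GRCm38.p6. Promoters were found for 44 of the 67 members, and 5 of these 44 (11.4%) held either form, beside 9.21% of 27025 genes in that table and 6.77% of the 9534 genes past the signal filter with a promoter. Over the whole 300 bases of each entry the counts were 6 of 44 (13.6%) and 10.6%. Of the 9 higher members with a promoter, Fzd7 and Dkk1 held a match, and of the 2 lower members with a promoter, Fzd5 and Fzd10, neither did. Of the 15 members within 2-fold with a promoter, Wnt5b, Wnt11 and Tcf7l2 held a match (20%), close to the 22.2% of the 9 higher members. Members' promoters were rich in G and C, with a median of 68.6% (the highest value over a gene's starts) beside 61.2% for genes past the filter. The promoters of Frizzled genes past 2-fold in either direction and of Dkk1 are shown. These genes differed in opposite directions or held a match. Fzd1 was left out for length, and Fzd6 had no promoter entry. Capitals mark the motif, and each run ends at the base before the transcription start.
Fzd4, chr7:89404116-89404365, plus strand: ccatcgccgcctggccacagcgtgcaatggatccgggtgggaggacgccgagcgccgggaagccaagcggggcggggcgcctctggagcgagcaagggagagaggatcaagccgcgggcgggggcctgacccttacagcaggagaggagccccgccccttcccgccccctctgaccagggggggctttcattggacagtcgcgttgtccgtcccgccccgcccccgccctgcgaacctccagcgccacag
Fzd7, chr1:59481897-59482146, plus strand: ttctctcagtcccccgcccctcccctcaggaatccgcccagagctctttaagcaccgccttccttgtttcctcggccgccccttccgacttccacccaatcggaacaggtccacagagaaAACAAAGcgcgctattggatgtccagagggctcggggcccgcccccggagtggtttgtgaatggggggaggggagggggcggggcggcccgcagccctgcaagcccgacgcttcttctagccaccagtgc
Dkk1, chr19:30549497-30549746, minus strand: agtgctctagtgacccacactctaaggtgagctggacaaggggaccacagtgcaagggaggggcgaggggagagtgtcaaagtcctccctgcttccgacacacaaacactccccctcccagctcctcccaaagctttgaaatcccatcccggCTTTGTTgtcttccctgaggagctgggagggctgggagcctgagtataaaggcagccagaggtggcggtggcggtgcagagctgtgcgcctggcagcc
Fzd5, chr1:64737751-64738000, minus strand: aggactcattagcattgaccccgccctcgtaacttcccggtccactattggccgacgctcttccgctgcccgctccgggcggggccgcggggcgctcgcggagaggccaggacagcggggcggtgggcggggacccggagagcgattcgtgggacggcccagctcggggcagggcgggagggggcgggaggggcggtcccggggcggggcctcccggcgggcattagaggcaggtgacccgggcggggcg
Fzd10, chr5:128600856-128601105, plus strand: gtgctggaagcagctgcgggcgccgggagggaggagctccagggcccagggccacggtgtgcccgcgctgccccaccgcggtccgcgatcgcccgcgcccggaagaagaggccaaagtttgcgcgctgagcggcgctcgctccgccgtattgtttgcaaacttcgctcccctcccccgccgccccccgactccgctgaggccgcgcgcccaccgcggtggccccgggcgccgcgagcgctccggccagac
The match of Fzd7 begins 130 bases before the start, on the opposite strand, and that of Dkk1 98 bases before it. The other runs hold no capitals, which says only that these letters are not in those windows.

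The R-spondin axis also divided. Rspo3, an R-spondin of endothelium and the embryonic vasculature, had a signal of 4904 in the untreated sample and 2403 after dox, 2.03-fold lower. A dim probe set of Rspo3, below the filter, gave a log2 difference of -1.12, beside -1.02 for the brightest. Rspo1 went the other way, with 12.1 and 208, 7.99-fold higher by its only probe set. Its log2 difference ran from 1.84 with 64 added to 4.00 with 1 added, because the untreated signal was far below the median of the array. Rspo2 was even (282 and 286, 0.02), and Rspo4 was below the filter (35.6 and 33.4).

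Lgr4, the broadly expressed R-spondin receptor, had a signal of 1064 untreated and 2388 after the dox pulse, 2.23-fold higher. A dim second probe set of Lgr4, below the filter, gave a log2 difference of 0.12. Lgr5, a receptor known as a stem cell marker and a beta-catenin target, had 162 and 59.2, 2.37-fold lower. Both Lgr5 probe sets were lower, the dimmer one by -0.43 below the filter. Lgr6 was below the filter (59.2 and 49.1). Znrf3, the ligase that clears Frizzled receptors, had 278 and 609, 2.12-fold higher, which became a log2 difference of 0.91 after median scaling. The dim second probe set of Znrf3, below the filter, gave 0.20. Rnf43, a relative of Znrf3, was below the filter (30.75 and 45.9). Of 6 genes of this axis past the filter, 3 were higher, 2 lower and 1 within 2-fold, beside 5.69% higher and 2.06% lower over all genes. Rspo1 passed through the dox array alone and Lgr5 through the untreated array alone, so a difference was built into both.

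Secreted antagonists past the filter included the largest difference among the members. Sfrp1, a decoy that binds Wnt proteins through a Frizzled-like domain, had a signal of 90.7 on the untreated array and 2147.5 on the dox array, 20.3-fold higher. Its other probe sets past the filter gave 5 to 309 (log2 difference 3.95), 24.1 to 155 (2.09) and 243 to 301 (0.29). Its last probe set, below the filter, gave 2.06. All 5 were therefore higher with dox, but their sizes disagreed, and the median over the 4 past the filter was 3.02. Of these 4, only the probe set at 0.29 passed on both arrays. The others passed through the dox array alone, so a difference was built into them and into that median. The untreated signal of the brightest lay below the median of the array, and its log2 difference of 4.34 was 3.84 with 64 added. Dkk1, which blocks Lrp5 and Lrp6 and is itself a beta-catenin target, had 916 and 2348, 2.54-fold higher, and its second probe set gave 148 and 327 (1.07). Sfrp2 lay within 2-fold (313 and 395, 0.32). Sfrp4 was lower but just short of 2-fold, with 292 and 144 (-0.94), and passed it with a pseudocount of 1 or after median scaling or quantile normalization. Dkk2 (11.35 and 50.45), Dkk3 (51.5 and 104), Dkk4, Sfrp5, Wif1 and the Wnt deacylase Notum (3.08 and 21.5) were below the filter.

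The 10 genes of the intracellular core past the filter (7 cytoplasmic and 3 TCF/LEF genes) differed by less than 2-fold when read from the brightest probe set of each. With 7.75% of all genes past 2-fold, 0 of 10 is near the background share and shows nothing particular to the core, and its difference from the receptors was not tested. Ctnnb1, which encodes beta-catenin, had a signal of 14917 in the untreated sample and 15150 after dox, a log2 difference of 0.02, and its other probe sets gave -0.01 and -0.29. Apc, a scaffold of the destruction complex, had 4058 and 4678 (0.20), with other probe sets between -0.52 and 0.30. Axin1, its partner scaffold, had 888 and 824 (-0.11). Among the Dishevelled genes, which relay the receptor signal, Dvl1 had 1845 and 1705 (-0.11, with -0.53 by another probe set) and Dvl2 had 325 and 344 (0.08). Dvl3 was below the filter (11.7 and 35.5). The median of the 7 cytoplasmic genes was 0.02, beside 0.05 over all genes past the filter.

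The TCF/LEF factors that carry beta-catenin to DNA lay within 2-fold as well. Tcf7l1, chiefly a repressor in stem cells, had 2551 and 3436 (0.43, with 0.33 by its second probe set). Tcf7l2 had 782 and 941 (0.26, with -0.03 by another). Lef1, an activating factor and itself a target, had 864 and 607 (-0.50). Its dimmer probe set, with 113 and 44.1, was past 2-fold at -1.10 but passed the filter through the untreated array alone. A difference was therefore built into it.

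Known feedback targets of beta-catenin did not share a direction. Of 11 such genes 10 had a named probe set and 6 passed the filter, with 2 higher, 1 lower and 3 within 2-fold. Over all genes past the filter, 5.69% were higher by that size and 2.06% lower. Axin2, a widely used reporter of canonical signalling, had a signal of 359 untreated and 196 after the dox pulse, a log2 difference of -0.82. A dim probe set of Axin2, below the filter, gave -1.39. Axin2, Lef1 and Lgr5 were lower by every one of their probe sets. The brightest probe set of Lgr5 and the dimmer one of Lef1 passed through the untreated array alone, so a difference was built into them. The dim probe sets of Axin2 and Lgr5 were below the filter, with signals of 3.04 and 3.94 after dox. Dkk1 and Znrf3 were higher, as given above, and Nkd1, a Dishevelled-binding feedback inhibitor, was close to even (2002 and 2166, 0.11, with 0.11 and 0.59 by its other probe sets past the filter). Nkd2, Notum, Rnf43 and Wif1 were below the filter. The median of the 6 was -0.19, beside 0.05 over all genes past the filter.

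As over all genes past the filter (671 higher and 243 lower), other pathway genes were more often higher than lower past 2-fold. They were taken from a list of 123 further components and targets. Of these 118 had a named probe set and 92 passed the filter, with 13 higher (14.1%) and 1 lower (1.09%), beside 5.69% and 2.06% over all genes. Of the 92, 8 passed through the dox array alone. With the filter on both arrays 83 were left, 8 higher and 0 lower, beside 3.82% and 1.54% of 10920 genes. The lower counts are near the shares over all genes and show nothing particular to the list. The median of the 92 was 0.27. Shisa3, of a family that holds Frizzled receptors back from the surface, had a signal of 2.83 on the untreated array and 1874 on the dox array (log2 difference 6.65), with 1.66 by its second probe set. Its relative Shisa2 had 32.5 and 227 (2.33). Dact1, a Dishevelled-binding regulator, had 179 and 3256, 16.8-fold higher, and Dixdc1, which has a Dishevelled-like domain, had 84.5 and 372 (1.95), although its dimmer probe sets, below the filter, gave 0.03, -0.06 and -0.63. The brightest probe sets of Shisa3, Shisa2 and Dixdc1 passed through the dox array alone, as did the second of Shisa3. A difference was therefore built into them. The untreated signal of Shisa3 was near the floor of 1, so the size of its difference depends on the pseudocount. Prickle2, a planar cell polarity protein, had 174 and 519.85, 2.81-fold higher. In the nuclear group the corepressor Tle3 had 1147 and 3043 (1.40) and the kinase Hipk2 had 2544 and 6217 (1.28, with 0.03 by another of its probe sets past the filter).

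Among 24 listed target genes past the filter, 6 were higher and 1 lower, beside 5.69% and 2.06% over all genes. Sox9 and Fst passed through the dox array alone and Cdx2 through the untreated array alone, so a difference was built into these. Sox9, a factor of cartilage and heart valves, had 12.3 and 770.3 (log2 difference 4.80), and Fst, an activin antagonist, had 18.3 and 556 (4.06). Lbh had 295 and 2079 (2.75), the mesenchymal factor Snai2 had 977 and 5188 (2.39), the peptide gene Edn1 had 668 and 2279 (1.75) and Id2, an inhibitor of helix-loop-helix factors, had 5073 and 11941 (1.23). The lower gene was Cdx2, a posterior homeobox factor, with 708 and 77.9 (-2.95), and its dim second probe set, below the filter, gave 0.78. Many of these genes are targets of several pathways, so the list does not measure Wnt activity alone. Ccnd1 and Myc, classical targets in dividing cells, were picked out once the values were known. The brightest probe set of Ccnd1 was within 2-fold (3071 to 1773, -0.79), but its other probe sets, nearly as bright, were past 2-fold lower with 3047 to 940 (-1.68) and 2396 to 996 (-1.25). Myc had 1 probe set (1445 to 1057, -0.44). In the wider list 11 genes were within 2-fold by the brightest probe set and past it by another one past the filter, 8 of them higher and 3 (Apcdd1, Camk2d and Ccnd1) lower, so its counts depend on the choice of probe set.

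**Figure D5:**
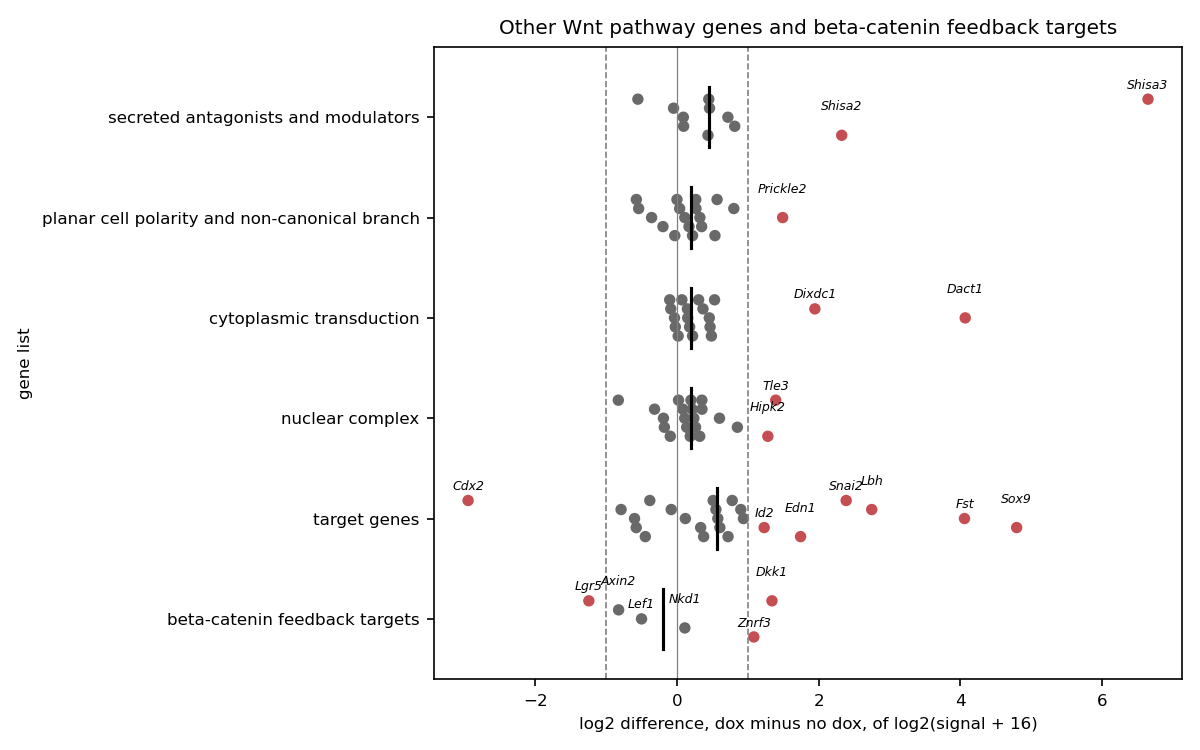
Log2 difference (dox minus no dox) of the brightest probe set for other Wnt pathway genes past the signal filter, by list, and for the 6 feedback targets past it; each point is a gene, red points are past 2-fold, dashed lines mark 2-fold and black bars are medians. Of the 92 genes of the upper 5 lists, 13 lie to the right of the dashed lines and 1, Cdx2, to the left, while the feedback targets lie on both sides of 0.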

How the data were processed

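RNA from Flk1+Tie2+ cells (1 array without dox, 1 with dox) was extracted on columns and 100 ng was labelled for Affymetrix 3' arrays, per the labels' protocols. The authors deposited linear signal intensities by probe set; their summarisation, scaling and floor are not given in the sources used here. Of 45037 probe sets, 34945 had 1 symbol in the platform annotation, 932 had several and 9160 had none listed. Entrez numbers of 34741 were found in the RefSeq table, changing 0 symbols.

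Values were analysed as log2(signal + 16) in Python 3.11.15 with pandas 2.3.3. The brightest probe set per gene, the signal filter and the 2-fold size were used as described above. The procedure was checked on simulated data. Their planted changes were larger than 2-fold and their noise was smaller than the spread between probe sets here. That check therefore says little about calls near 2-fold. With 1 array per group no test was possible. Alternatives covered pseudocount, filter, scaling and probe set choice. Named members are those past 2-fold, the brightest and most different of each role, those whose probe sets disagree on 2-fold, and the feedback targets. From the wider list every gene past 2-fold is named. The remaining members are listed so that each is accounted for. Members, lists and rules were chosen with earlier results of these data known. Precision is limited by the number of arrays.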

Additional observations from a re-analysis of the deposited data

How the results depend on the processing

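Across 9 other ways of processing, and a centring on the median of all genes that was chosen after seeing the data, the number of members 2-fold or more higher ran from 7 to 12 and that of lower members from 2 to 7. Over all genes those counts ran from 350 to 867 and from 135 to 402. The largest loss came with the filter at the 75th percentile, which left 21 members, 7 higher and 2 lower. Beside these stood 350 higher and 135 lower of 7395 genes. In the wider list the higher count was 8 and the lower count 0 of 83 with the filter on both arrays. The shares over all genes were 3.82% and 1.54% there. The lower count of that list was 2 with the median of the probe sets, with median scaling, and without probe sets ending in _x_at or _s_at. Every higher or lower member kept its direction wherever it passed the filter. Calls near 2-fold changed: Znrf3 was lost with a pseudocount of 64 and after both rescalings, Lgr4 after median scaling, and Lgr5 with a pseudocount of 64. Sfrp4 became a lower member with a pseudocount of 1 and after both rescalings, and Dkk2 a higher one without the filter. Wnt2, Rspo1, Sfrp1, Fzd6 and Lgr5 did not pass the filter on both arrays. Fzd2 passed 2-fold with the median of the probe sets or without those suffixes. Median scaling moved the median of all genes by -0.18. Relative to the median of all genes, the members' median was 0.17 as reported and after median scaling, and 0.10 with the median of the probe sets. No paired analysis was possible because each condition has 1 array. Without replicates, the spread between cultures is unknown.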

Other observations

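Some partners of Wnt receptors lie outside the symbol rule, and this further list was drawn up after the members' values were known. Reck, a membrane protein that works with Adgra2 in reading Wnt7 ligands on endothelium, had a signal of 2786 in the untreated sample and 6125 after dox (log2 difference 1.13). Adgra2 had 1937 and 2375 (0.29). Tspan12, which assists Fzd4 in norrin signalling, had 3624 and 6681 (0.88), while the norrin gene Ndp was below the signal filter (84.8 and 58.8).

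Among matrix-bound modulators and matricellular genes, 2 of 5 passed the filter. Ccn4, a matricellular protein known as a beta-catenin target, had 61.4 and 267 (1.87), and its second probe set gave 2.98, both passing through the dox array alone. Lrp1 had 495 and 875 (0.80), with 1.13 by a dimmer probe set that passed through the dox array alone. Below the filter were Cthrc1 (34.2 and 98.6), Lrp4 (44.7 and 89.5) and Ccn5, which was lower (97.5 and 55.3, -0.67). Of 7 glypican, syndecan and sulfatase genes, whose products handle Wnt proteins at the cell surface, none was past 2-fold, which is near the share over all genes (7.75% past 2-fold) and shows nothing particular to them. They ran from -0.50 for Sulf1 to 0.76 for Gpc1.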
